A study of Mus musculus with 6 samples.

Results

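The 10 genes described here encode the vasopressin V2 receptor (Avpr2), the alpha subunit of the stimulatory G protein Gs (Gnas), 6 membrane adenylyl cyclases (Adcy3, Adcy4, Adcy5, Adcy6, Adcy7 and Adcy9) and the cyclic AMP sensors Epac1 and Epac2 (Rapgef3 and Rapgef4). They were taken by gene symbol for their place in the vasopressin pathway. Of the 10, 9 had a row among the 20896 transcripts of the deposited read table, which lists 1 transcript per gene; neither of the 2 annotated transcripts of Adcy5 was among them, and Adcy5 was not analysed here.

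The study used mpkCCD cells, a mouse cell line of kidney collecting duct type, and measured RNA by stranded sequencing after removal of ribosomal RNA. It set 3 clones labelled PKA dKO (double knockout of PKA, by CRISPR-Cas9 per the study's title) against 3 control clones of the same parent line. Each clone gave 1 library, so every p-value measures the spread between single clones. All 6 clones received the V2 receptor agonist dDAVP at 0.1 nM for 3 days in medium without serum or hormones, after 4 days of growth on permeable supports with 2% serum, insulin, dexamethasone, triiodothyronine and epidermal growth factor. No clone without dDAVP was analysed here, so the values compare genotypes under stimulation and do not show a response to the agonist. The labels name neither the edited genes nor what the control clones had been through; Prkaca and Prkacb, which encode the catalytic subunits of PKA, are taken here as the targets.

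Vasopressin binds the V2 receptor of principal cells in the collecting duct, the receptor activates Gs, and Gs stimulates adenylyl cyclases to make cyclic AMP. Cyclic AMP releases the catalytic subunits of PKA, which is the route best known for the control of the water channel aquaporin-2, and it also binds the Epac proteins, exchange factors that load Rap GTPases with GTP independently of PKA. The genes described here lie upstream of PKA or beside it.

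PKA can phosphorylate the transcription factor CREB, whose textbook binding sequence is the cyclic AMP response element, TGACGTCA, which is often found as its shorter core, TGACG, on either strand. The promoters of Avpr2, Gnas and Rapgef3 are shown because these genes are abundant members, and that of Aqp2, which encodes aquaporin-2, because its RNA was far lower in the PKA dKO clones. Each runs from 250 bases before to 50 bases after a RefSeq start site, 5′ to 3′ on the strand given (GRCm38.p6), in lower case with the core, on either strand, in capitals.
Avpr2 promoter, chrX:73891852-73892151, plus strand: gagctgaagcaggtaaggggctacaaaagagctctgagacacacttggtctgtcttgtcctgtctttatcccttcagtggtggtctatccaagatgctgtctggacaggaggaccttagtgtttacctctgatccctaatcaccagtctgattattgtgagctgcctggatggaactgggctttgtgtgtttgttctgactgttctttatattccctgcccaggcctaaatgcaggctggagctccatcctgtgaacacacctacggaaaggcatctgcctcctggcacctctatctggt
Gnas promoter, chr2:174329756-174330055, plus strand: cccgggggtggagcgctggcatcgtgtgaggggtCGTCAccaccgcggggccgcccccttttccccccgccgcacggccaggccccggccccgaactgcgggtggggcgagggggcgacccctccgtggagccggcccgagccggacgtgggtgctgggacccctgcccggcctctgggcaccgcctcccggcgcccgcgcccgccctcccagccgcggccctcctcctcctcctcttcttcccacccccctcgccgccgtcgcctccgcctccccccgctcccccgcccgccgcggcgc
Rapgef3 promoter, chr15:97767617-97767916, minus strand: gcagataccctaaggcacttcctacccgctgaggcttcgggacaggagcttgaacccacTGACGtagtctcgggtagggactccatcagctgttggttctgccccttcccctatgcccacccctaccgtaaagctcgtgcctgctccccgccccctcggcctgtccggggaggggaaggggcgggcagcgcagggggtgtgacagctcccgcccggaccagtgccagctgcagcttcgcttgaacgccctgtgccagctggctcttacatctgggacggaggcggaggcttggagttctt
Aqp2 promoter, chr15:99578806-99579105, plus strand: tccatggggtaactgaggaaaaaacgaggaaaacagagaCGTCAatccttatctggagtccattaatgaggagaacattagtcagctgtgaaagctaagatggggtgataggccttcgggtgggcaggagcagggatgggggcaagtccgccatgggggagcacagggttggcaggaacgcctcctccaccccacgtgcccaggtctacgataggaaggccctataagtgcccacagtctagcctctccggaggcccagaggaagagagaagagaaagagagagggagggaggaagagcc
Of the members, 9 had promoters in the RefSeq table, 15 in all counting alternative starts, and Adcy6 had none. None of the 15 held the full element, which was present on either strand in 1.79% of 32851 promoters of this length, and 6 of the 15 held the core, present in 20.8%; every full element also holds the core. The 6 belong to 4 genes, Gnas, Adcy7, Adcy9 and Rapgef3. They include 3 Gnas promoters, of which a pair with nearby starts shares 1 core, at -38 and -57 from their own starts. The core began at position -191 relative to the start in Rapgef3 and at -211 in Aqp2. Gnas had one at -216 from the start shown, and the start of its listed transcript is the one with the core at -57. Avpr2 held neither sequence in this window. A match is a description of letters, not of a bound site.

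Library depth was 38760162, 30541578 and 37854925 recovered reads in PKA dKO clones 1, 2 and 3, against 39780099, 28596444 and 42515838 in control clones 1, 2 and 3. The libraries of PKA dKO clone 3 and control clone 1 differed from the rest and are the ones said to stand apart in what follows. There were 2363 and 2443 transcripts at 0 reads in these libraries, against 863 to 1045 in the other 4, and at least 1 read fell on 51.0% and 50.7% of 1349 olfactory and vomeronasal receptor transcripts, against 81.8% to 87.4%. Values that moved markedly without these libraries are given also from the other 4. Prkaca stood at 6.65, 8.49 and 7.44 CPM (counts scaled to library depth) in PKA dKO clones, against 133, 75.8 and 90.6 CPM in control clones, a log2 fold change of -3.69 (limma, adjusted p = 1.6e-05). Prkacb stood at 103 ± 3.43 CPM in PKA dKO clones and 121 ± 14.7 CPM in control clones (SD, n = 3 each; limma, adjusted p = 0.939), and what its RNA still encodes cannot be read from these values. Of 12 principal cell markers with a row, 9 had at least 1 CPM in all libraries, and Avpr2, itself a member, is among the 9. Aqp2 stood at 3.39, 2.72 and 1.82 CPM in PKA dKO clones, against 399, 140 and 157 CPM in control clones, and Tfcp2l1, a transcription factor of collecting duct, at 751 ± 22.0 CPM in PKA dKO clones and 528 ± 119 CPM in control clones (SD, n = 3 each), without overlap (limma, adjusted p = 0.489).

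None of the 9 measured members passed the test between PKA dKO and control clones at an adjusted p of 0.05, the threshold used throughout. Over all 16683 transcripts tested, 28 passed (0.168%), 9 higher (0.0539%) and 19 lower (0.114%) in PKA dKO clones. The members' adjusted p-values ran between 0.695 and 1.00 (limma, Benjamini-Hochberg over all transcripts tested). Of the 9 members, 4 had a positive and 5 a negative log2 fold change, with a median of -0.01, against -0.0015 over all tested transcripts. Their median absolute log2 fold change was 0.19 and that of all tested transcripts 0.18. The edgeR quasi-likelihood test and DESeq2 on the recovered reads called no member either, while calling 0.168% and 1.71% of the transcripts they tested. DESeq2 gave Rapgef4 no adjusted p, so it could not call that gene. Avpr2 was the 1 member with an unadjusted p under 0.05, a level reached by 6.24% of all transcripts tested (3.84% with a lower level in PKA dKO clones). It was also the 1 member whose groups did not overlap, which held for 10.8% of all transcripts tested (5.67% lower and 5.15% higher in PKA dKO clones) and for 14.6% of the 9112 with a mean of at least 10 CPM.

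**Figure D1:**
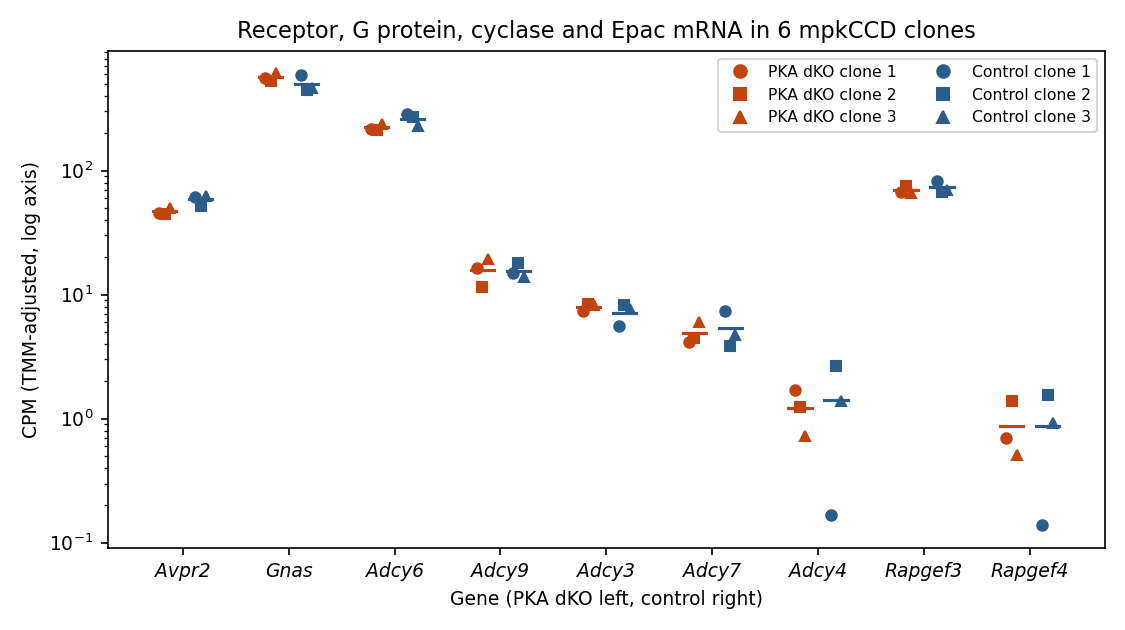
CPM (log axis) of the 9 measured members in the 3 PKA dKO clones (left of each pair) and the 3 control clones; points are clones and lines are group means. Avpr2 is the member whose groups do not overlap, at 44.7 to 50.3 CPM in PKA dKO clones and 51.9 to 62.2 CPM in control clones.

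Avpr2 (ENSMUSG00000031390.8; GRCm38, X:73892102-73894428, plus strand, 1805 bases listed, 3 exons) encodes the receptor that dDAVP binds. It stood at 45.5, 44.7 and 50.3 CPM in PKA dKO clones 1, 2 and 3, against 61.6, 51.9 and 62.2 CPM in control clones 1, 2 and 3. Every PKA dKO clone was below every control clone, though dKO clone 3 and control clone 2 were close. The means were 46.8 ± 3.04 CPM in PKA dKO clones and 58.6 ± 5.79 CPM in control clones (SD, n = 3 each). The log2 fold change was -0.32 with a standard error of 0.13 (limma, adjusted p = 0.695). Its 95% interval ran from 1.02-fold to 1.53-fold lower, where that of Aqp2 ran from 45.8-fold to 135-fold lower. Such intervals, here and below, are not adjusted for the number of transcripts tested.

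The Avpr2 difference was as large without the libraries that stood apart, at -0.33 over the other 4 libraries (limma, adjusted p = 0.374) and -0.29 between PKA dKO clone 3 and control clone 1, a pair with no replicate. Arhgap4, a gene on the opposite strand, has annotated exons over all 1812 exonic bases of the Avpr2 transcript in GENCODE M21. The sources used here do not say whether counting used strand, so the reads of this pair cannot be told apart. Arhgap4 itself stood at 4.49 ± 0.319 CPM in PKA dKO clones and 4.53 ± 0.579 CPM in control clones (SD, n = 3 each), well under Avpr2 and with a log2 fold change of -0.01. The same limit holds for other members that share exonic bases with genes on the opposite strand. The shared stretches are 1466 bases of Gnas, 605 of Adcy6, 218 and 263 of Rapgef3 and 337 of Rapgef4.

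Gnas (ENSMUSG00000027523.19; GRCm38, 2:174327768-174346744, plus strand, 13 exons), which encodes Gs alpha, was the most abundant member. It stood at 557, 528 and 608 CPM in PKA dKO clones, against 589, 444 and 462 CPM in control clones. Control clone 1 lay among the PKA dKO clones and the other control clones lay under all of them. The means were 564 ± 40.7 CPM in PKA dKO clones and 499 ± 78.8 CPM in control clones (SD, n = 3 each), and the log2 fold change was 0.19 with a 95% interval of -0.15 to 0.53 (limma, adjusted p = 1.00). Over the 4 libraries that did not stand apart it was 0.27 (limma, adjusted p = 0.497). Gnas is an imprinted locus with 24 annotated transcripts from several starts, and the single listed row cannot separate them. The deposited FPKM (length- and depth-scaled reads) of Gnas imply a length of 1717 bases where 3876 are listed, so its level per length depends on which is used.

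Adcy6 (ENSMUSG00000022994.9; GRCm38, 15:98589994-98607633, minus strand, 22 exons) encodes a calcium-inhibited cyclase that is a main source of vasopressin-stimulated cyclic AMP in mouse collecting duct. It stood at 218, 213 and 239 CPM in PKA dKO clones, against 286, 271 and 229 CPM in control clones. PKA dKO clone 3 was above control clone 3, and the other PKA dKO clones were below all controls. The means were 223 ± 13.8 CPM in PKA dKO clones and 262 ± 29.3 CPM in control clones (SD, n = 3 each), and the log2 fold change was -0.23 with a 95% interval of -0.52 to 0.06 (limma, adjusted p = 0.951). Adcy6 lies on chromosome 15, whose median transcript was 0.11 lower on the log2 scale in PKA dKO clones. With each library's chromosome medians removed, Adcy6 had a log2 fold change of -0.10.

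**Figure D2:**
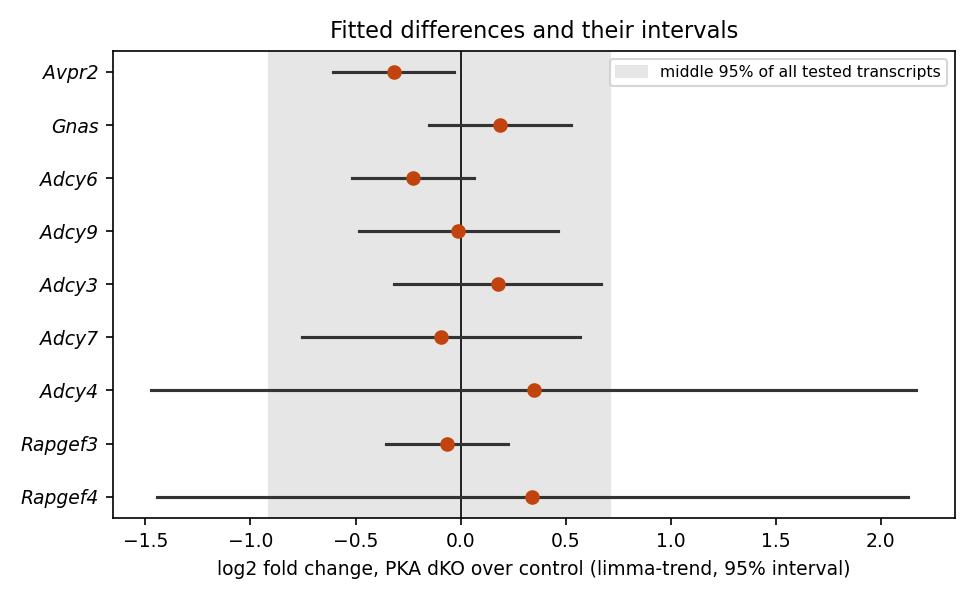
Log2 fold change, PKA dKO over control, of the 9 measured members with 95% intervals; the grey band holds the middle 95% of all tested transcripts, -0.91 to 0.71. The Avpr2 interval alone lies wholly on 1 side of 0, and the intervals of Adcy4 and Rapgef4 extend past the band. The intervals are not adjusted for the number of transcripts tested, and no member passed the adjusted threshold.

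The other cyclases were measured at lower levels. Adcy9 (GRCm38, 16:4287545-4419587, minus strand, 10 exons), a broadly expressed cyclase known for its weak response to forskolin, stood at 16.3, 11.5 and 19.4 CPM in PKA dKO clones, against 15.0, 17.8 and 13.9 CPM in control clones. Adcy3 (12:4133104-4213525, plus strand, 22 exons), a cyclase known from olfactory neurons and primary cilia, stood at 7.44, 8.36 and 8.22 CPM in PKA dKO clones, against 5.62, 8.21 and 7.67 CPM in control clones. The groups overlapped for both genes, with log2 fold changes of -0.01 (95% interval -0.48 to 0.46) for Adcy9 and 0.18 (-0.32 to 0.67) for Adcy3; over the 4 libraries that did not stand apart they were -0.19 and -0.0012. Adcy3 shares 1380 exonic bases with Cenpo, a kinetochore gene on the opposite strand that stood at 47.6 ± 1.25 CPM in PKA dKO clones and 47.1 ± 6.66 CPM in control clones (SD, n = 3 each), a level above that of Adcy3; the part of its reads in the Adcy3 values was not tested.

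Adcy7 and Adcy4, cyclases of the class that G protein beta-gamma subunits can stimulate, were lower still. Adcy7 (GRCm38, 8:88272403-88329962, plus strand, 28 exons) stood at 4.18, 4.47 and 6.01 CPM in PKA dKO clones, against 7.41, 3.86 and 4.74 CPM in control clones. Adcy4 (14:55769058-55784042, minus strand, 26 exons) stood at 1.72, 1.24 and 0.730 CPM in PKA dKO clones, against 0.166, 2.68 and 1.38 CPM in control clones. Control clone 1 was the highest library for Adcy7 and the lowest for Adcy4. Over the 4 libraries that did not stand apart, the log2 fold change of Adcy7 was 0.021 and that of Adcy4 was -0.38, where all 6 libraries gave -0.09 and 0.35, so neither gene has a stable direction. The Adcy4 values rest on 6 to 82 reads a library.

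Among the cyclases with a row, the RNA was mostly Adcy6. Adcy5 had no row, so every share given here leaves it out. Among the 5 measured cyclase members, Adcy6 made up 84.9%, 86.5% and 84.2% of summed FPKM in PKA dKO clones, against 88.9%, 86.1% and 86.4% in control clones. The groups overlapped, with means of 85.2 ± 1.18% in PKA dKO clones and 87.1 ± 1.55% in control clones (SD, n = 3 each), a difference of -1.97 percentage points (exact permutation test, two-sided, p = 0.3, adjusted p = 0.667 over the 5 cyclases). Adcy9 made up 8.02 ± 1.55% in PKA dKO clones and 6.99 ± 0.682% in control clones, and Adcy3 4.13 ± 0.417% in PKA dKO clones and 3.27 ± 0.791% in control clones (SD, n = 3 each). Their exact permutation p-values were 0.4 and 0.2, and the smallest p that 3 against 3 clones allow is 0.1. Over the 4 libraries that did not stand apart, the differences in share were -0.580 percentage points for Adcy6, 0.0802 for Adcy9 and 0.476 for Adcy3. Adcy7 averaged 1.86% in PKA dKO clones and 1.78% in control clones, and Adcy4 0.825% in PKA dKO clones and 0.823% in control clones. With the cyclases outside the members added (Adcy1, Adcy2, Adcy8 and Adcy10), Adcy6 still held 83.5% to 84.7% in PKA dKO clones and 84.2% to 88.5% in control clones.

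**Figure D3:**
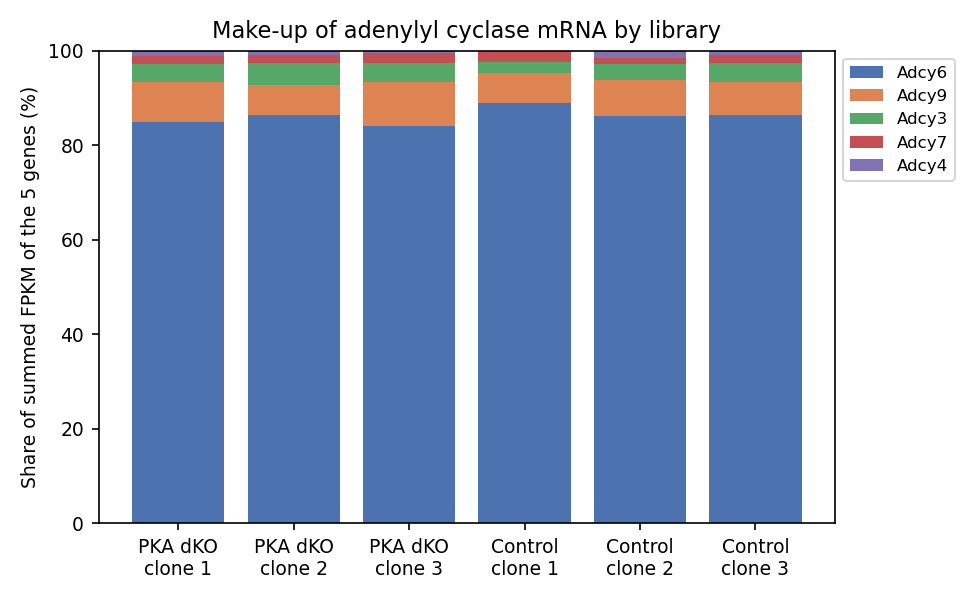
Share of summed adenylyl cyclase FPKM (percent, stacked) held by each of the 5 measured cyclase members, for PKA dKO clones 1 to 3 on the left and control clones 1 to 3 on the right. Adcy6 holds 84.2% to 86.5% in PKA dKO clones and 86.1% to 88.9% in control clones.

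Rapgef3 (ENSMUSG00000022469.17; GRCm38, 15:97744770-97767846, minus strand, 28 exons), which encodes Epac1, stood at 67.1, 75.3 and 66.6 CPM in PKA dKO clones, against 83.0, 67.1 and 69.2 CPM in control clones. The groups overlapped widely, with means of 69.7 ± 4.91 CPM in PKA dKO clones and 73.1 ± 8.66 CPM in control clones (SD, n = 3 each). The log2 fold change was -0.07 with a 95% interval of -0.36 to 0.23 (limma, adjusted p = 1.00), and it was 0.07 over the 4 libraries that did not stand apart. As a fold, the interval ran from 1.28-fold lower to 1.17-fold higher.

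Rapgef4 (GRCm38, 2:72054604-72257472, plus strand, 28 exons), which encodes Epac2, stood at 0.697, 1.39 and 0.505 CPM in PKA dKO clones, against 0.138, 1.54 and 0.921 CPM in control clones, from 5 to 47 reads a library. The libraries that stood apart were the lowest of their own groups. Its log2 fold change of 0.34 had a 95% interval of -1.45 to 2.13 (limma, adjusted p = 1.00), and over the other 4 libraries it was -0.25. Rapgef3 made up nearly all Epac RNA, 98.9 ± 0.503% of summed FPKM in PKA dKO clones and 98.9 ± 0.933% in control clones (SD, n = 3 each; exact permutation test, two-sided, p = 1). The difference in share was 0.0402 percentage points over all 6 libraries and 0.318 over the other 4.

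Levels per length put the members in order within each library. The mean over the 6 libraries was 137 RPKM (CPM per kilobase of listed length) for Gnas, 40.6 for Adcy6, 29.2 for Avpr2, 18.1 for Rapgef3 and 3.53 for Adcy9, and the ranges of these 5 genes over the libraries did not touch each other. Adcy3 followed at 1.54, Adcy7 at 0.843, Adcy4 at 0.383 and Rapgef4 at 0.214 RPKM. Among these, neighbours in the order had overlapping ranges. Adcy3 was above Adcy7 in 5 of 6 libraries, Adcy7 above Adcy4 in 5, and Adcy4 above Rapgef4 in all 6. The deposited FPKM gave the same order, with means of 124 for Gnas, 16.1 for Adcy6, 11.6 for Avpr2 and 7.80 for Rapgef3. In FPKM, however, the range of Avpr2 (8.10 to 15.1) overlapped those of Adcy6 (11.7 to 21.2) and Rapgef3 (6.24 to 10.1). The FPKM range of Adcy9 (0.846 to 1.98) also overlapped that of Adcy3 (0.569 to 0.862), which lay above that of Adcy7 (0.222 to 0.554).

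The lowest members were set beside 1349 olfactory and vomeronasal receptor transcripts, genes that a kidney epithelial cell should hardly express, as a background for stray reads. Adcy9 was above all of these receptors in every library, and Adcy3 and Adcy7 were above at least 95.3% of them in every library. Adcy4 was above 97.5%, 88.7% and 96.8% of the receptors in PKA dKO clones, against 59.8%, 97.6% and 97.0% in control clones. Rapgef4 was above 71.8%, 87.8% and 91.5% in PKA dKO clones, against 57.7%, 80.2% and 81.2% in control clones, and lay under the receptors' 95th percentile in each library. Rapgef4 was thus not detectable above this background at this depth, while Adcy4 was above that percentile in 4 of 6 libraries. Adcy1, Adcy2, Adcy8 and Adcy10 lay among the receptors, above 43.0% to 92.0% of them.

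**Figure D4:**
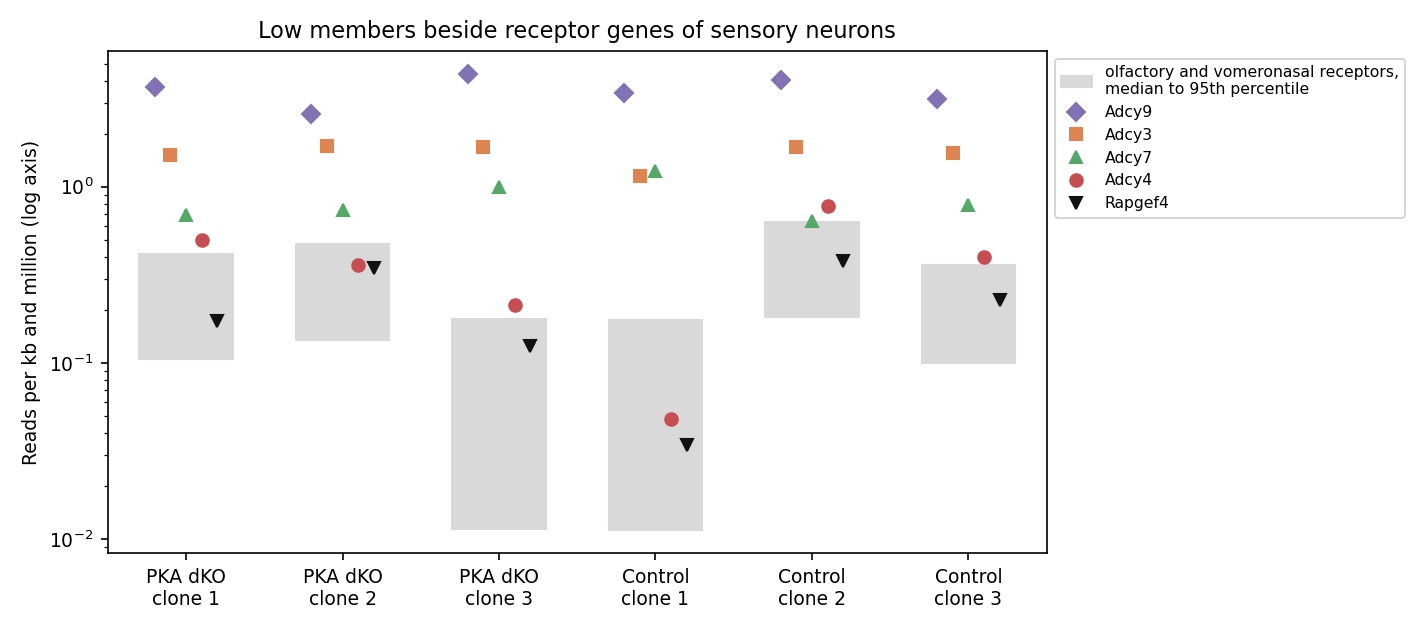
RPKM (log axis) of Adcy9, Adcy3, Adcy7, Adcy4 and Rapgef4 in each library, PKA dKO clones on the left and control clones on the right; grey bars run from the median to the 95th percentile of 1349 olfactory and vomeronasal receptor transcripts. Adcy9, Adcy3 and Adcy7 lie above the bars in all libraries, and Rapgef4 lies within them. For Adcy7 the margin is narrow in control clone 2, at 0.637 against 0.627 RPKM.

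Read ratios between the 3 most abundant upstream members need no scaling between libraries; they were computed after the members' values had been seen. The ratio of Gnas to Avpr2 reads was 12.2, 11.8 and 12.1 in PKA dKO clones, against 9.56, 8.56 and 7.43 in control clones. The PKA dKO clones lay close together and above every control clone, with means of 12.05 ± 0.215 in PKA dKO clones and 8.52 ± 1.06 in control clones (SD, n = 3 each). The difference of 3.53 had an exact permutation p of 0.1, the smallest that 3 against 3 clones allow (two-sided; adjusted p = 0.15 over 3 ratios). The ratio of Gnas to Adcy6 reads was 2.56, 2.48 and 2.55 in PKA dKO clones, against 2.06, 1.64 and 2.02 in control clones, again without overlap and with an exact permutation p of 0.1 (two-sided, adjusted p = 0.15). The ratio of Adcy6 to Avpr2 reads was 4.78, 4.76 and 4.75 in PKA dKO clones, against 4.64, 5.21 and 3.69 in control clones, so here the control clones enclosed the PKA dKO clones (exact permutation p = 0.7). In 4 libraries without those that stood apart, the Gnas to Avpr2 difference was 4.03 and the Gnas to Adcy6 difference 0.691. In this design no ratio could have passed 0.05. How often the ratios of other gene pairs lack overlap was not computed. Avpr2 on its own already had no overlap, as did 14.6% of the transcripts with a mean of at least 10 CPM.

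**Figure D5:**
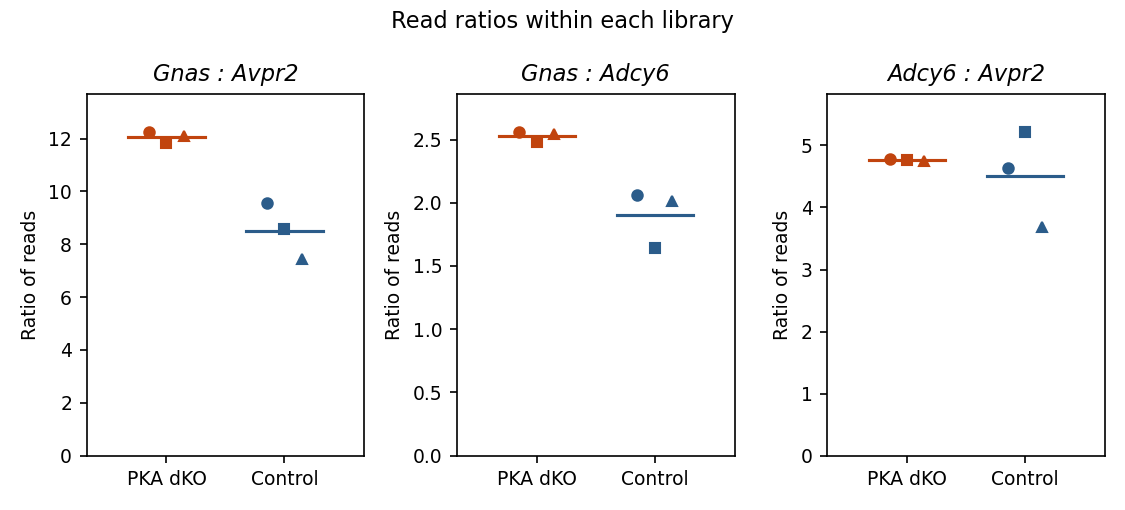
Ratios of recovered reads, Gnas to Avpr2, Gnas to Adcy6 and Adcy6 to Avpr2, in the 3 PKA dKO clones (left in each panel) and the 3 control clones; points are clones and lines are group means. The PKA dKO clones lie above all control clones in the first panels, at 11.8 to 12.2 and 2.48 to 2.56, and inside the control range in the last.

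The authors' deposited table of differential expression held 7 of the members, and Adcy4 and Rapgef4 were not in it. In the authors' deposited table, Avpr2 had a log2 fold change of -0.34 with a false discovery rate of 0.186, and Adcy6 -0.25 with 0.389. For Gnas the authors' deposited table gave 0.16 with a false discovery rate of 0.680, and for the other 4 members false discovery rates of 0.921 to 0.990. No member was past 0.05 in the authors' deposited table, where 354 of 10190 transcripts (3.47%) were.

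The rest of the pathway was described with 8 lists of 139 genes, of which 132 had a row and 128 were tested. None of the 128 passed the adjusted threshold in the limma fit or in the edgeR quasi-likelihood test. At an unadjusted p under 0.05 there were 1 higher and 6 lower in PKA dKO clones (5.47%, against 6.24% of all transcripts), and 13 had groups that did not overlap (10.2%, against 10.8%). DESeq2 on the recovered reads called 2 of them, Rap1gap and Abcc4, in a fit that called 1.71% of all the transcripts it tested.

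Among 23 tested receptors that couple to Gs and their RAMP partners, 19 had negative and 4 positive log2 fold changes, with a median of -0.18, where the median of all tested transcripts was -0.0015. This split of signs was not tested, and genes measured in the same 6 libraries are not independent. Ptger4, the prostaglandin E2 receptor EP4, which also raises cyclic AMP in collecting duct, stood at 9.56, 9.06 and 9.79 CPM in PKA dKO clones, against 13.3, 14.6 and 14.0 CPM in control clones. All PKA dKO clones were below all control clones, but the log2 fold change of -0.56 did not pass (limma, adjusted p = 0.423). Ramp3, a partner protein of calcitonin family receptors, stood at 0.498, 0.412 and 0.309 CPM in PKA dKO clones, against 1.58, 1.31 and 0.737 CPM in control clones (limma, adjusted p = 0.706). Its values rest on 11 to 57 reads a library. Among 22 receptors of Gi and Gq, 12 had positive and 10 negative values. Lpar1, a lysophosphatidic acid receptor, stood at 0.797, 0.728 and 0.196 CPM in PKA dKO clones, against 2.21, 1.77 and 1.17 CPM in control clones. These low levels rest on 7 to 80 reads a library. Lpar1 had a log2 fold change of -1.64 (limma, adjusted p = 0.604), and F2r, the thrombin receptor PAR1, 0.36 (limma, adjusted p = 0.877). Without PKA dKO clone 3 they were -1.07 and 0.15. With 16 scaled reads added in place of 1, Lpar1 had -0.84.

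Among 11 other G protein alpha subunits the median log2 fold change was 0.02, and the genes with the lowest p were Gnai3, an inhibitory alpha subunit at 347 ± 32.4 CPM in PKA dKO clones and 297 ± 40.9 CPM in control clones, and Gna13, at 143 ± 22.7 CPM in PKA dKO clones and 129 ± 10.3 CPM in control clones (SD, n = 3 each). Neither passed, with log2 fold changes of 0.23 and 0.14 (limma, adjusted p = 0.988 and 1.00); over the 4 libraries that did not stand apart Gna13 had -0.028. Among 13 beta and gamma subunits, 5 had positive and 8 negative values. Gng12, a gamma subunit, stood at 84.5, 94.4 and 83.3 CPM in PKA dKO clones, against 139, 116 and 106 CPM in control clones. The groups were apart, with a log2 fold change of -0.45 (limma, adjusted p = 0.403). Gng10, also a gamma subunit, had 0.28 (limma, adjusted p = 0.891).

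Among 20 receptor kinases, arrestins and G protein regulators, 12 had positive and 8 negative values. Rgs19, which speeds GTP hydrolysis by Gi alpha subunits, had a log2 fold change of -0.33, and Grk5, a receptor kinase, -0.43 (limma, adjusted p = 0.933 and 0.940). Without control clone 1 they were -0.17 and -0.27. Adcy8 and Adcy1, calcium-stimulated cyclases within the receptor background, had -0.45 and 0.41 (limma, adjusted p = 1.00 for both), and Adcy1 had -0.10 over the 4 libraries that did not stand apart. These 20 regulators and the 4 other cyclases held no gene with an unadjusted p under 0.05.

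Of the Rap GTPases, other Rap exchange factors, Rap GTPase-activating proteins and Rap effectors, 21 were tested. Among them, 14 had positive and 7 negative values. Rap1gap, a GTPase-activating protein that turns Rap1 off, stood at 63.7, 47.0 and 63.8 CPM in PKA dKO clones, against 36.8, 24.6 and 16.8 CPM in control clones. Every PKA dKO clone was above every control clone, with a log2 fold change of 1.22 and a standard error of 0.25 (limma, adjusted p = 0.114). Rap1gap passed in some other fits: DESeq2 gave 1.15 (adjusted p = 9.39e-04), the 4 libraries that did not stand apart 1.43, and the fit without control clone 1 gave 1.503 (limma, adjusted p = 0.00104). These fits called 213, 518 and 146 transcripts in all, against 28 in the limma fit of all 6 libraries. Rap1gap did not pass in edgeR's quasi-likelihood test (adjusted p = 0.148) or with chromosome medians removed (limma, adjusted p = 0.0645). Nor did it pass without any other single clone (limma). Rapgef5, a Rap exchange factor that does not depend on cyclic AMP, stood at 6.55, 5.86 and 5.05 CPM in PKA dKO clones, against 10.9, 7.46 and 11.8 CPM in control clones, apart between groups but not past the threshold (log2 fold change -0.76; limma, adjusted p = 0.439).

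Among 14 other cyclic nucleotide sensors and exporters, 6 had positive and 8 negative values. Abcc4, a transporter that exports cyclic AMP, stood at 124, 96.3 and 68.1 CPM in PKA dKO clones, against 275, 152 and 138 CPM in control clones. The groups were apart, with control clone 1 far above the others, and the log2 fold change was -0.94 (limma, adjusted p = 0.336). DESeq2 gave -0.98 (adjusted p = 0.0138), while without PKA dKO clone 3 and control clone 1 the value was -0.40 (limma, adjusted p = 0.155). Abcc4 lies on chromosome 14, and with chromosome medians removed the value was -0.75 (limma, adjusted p = 0.101). Cnga4, a subunit of cyclic nucleotide-gated channels, had 0.72 from under 2 CPM in every library (limma, adjusted p = 1.00), and 0.088 without control clone 1.

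The genes whose levels followed the members most closely over the 6 libraries were found among 9924 transcripts with a mean of at least 5 CPM, as Pearson's r of log2 CPM and as a description, since the libraries share depth and clone structure. For Avpr2 they were Sdr39u1 (r = 0.976), Srgap3 (0.974) and Rpl18 (0.973). For Gnas they were Tanc1 (0.999), Actr3 (0.997) and Dcun1d3 (0.996), for Adcy6 Sp8 (0.995), Rnf44 (0.993) and Npdc1 (0.990), and for Rapgef3 Tfap2a (0.991), Irf2 (0.984) and Tlr3 (0.972). An r of at least 0.9 was found for 695 of these transcripts with Gnas, 160 with Adcy6, 128 with Avpr2 and 69 with Rapgef3.

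The cell type markers gave these summed levels. Principal cell markers, Avpr2 included, summed to 1231 to 1342 CPM in PKA dKO clones and 1141 to 1738 CPM in control clones. In this sum the lower Aqp2 and the higher Tfcp2l1 values of PKA dKO clones offset each other in part. Intercalated cell markers, with 3 of 10 at 1 CPM or more in all libraries, summed to 78.3 to 170 CPM in PKA dKO clones and 31.8 to 57.9 CPM in control clones, and proximal tubule markers, with 3 of 7, to 701 to 869 CPM in PKA dKO clones and 313 to 411 CPM in control clones. Most of the gap between the groups in these sums was in Rhcg and Lrp2. Rhcg averaged 83.2 ± 60.8 CPM in PKA dKO clones and 3.30 ± 2.41 CPM in control clones, and Lrp2 786 ± 87.5 CPM in PKA dKO clones and 360 ± 53.5 CPM in control clones (SD, n = 3 each). Thick ascending limb, fibroblast, and endothelial and blood cell markers each summed to under 10 CPM in every library, and no measured marker of any list was at 0 in all 6. In such bulk samples, fewer cells of a type and less RNA per cell cannot be told apart. The part of cell type in the values of Avpr2, Gnas and Adcy6 was not tested.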

How the data were processed

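RNA of 6 mpkCCD clones, 262 ng each, was made into stranded, ribosomal RNA-depleted libraries, per the labels' protocols. Tools listed by the submitters' processing notes, with no role for any of them, are HOMER 4.8, STAR 2.5.2a, edgeR and SAMtools, and GRCm38.p5 is the build. The deposited read columns, called read counts in the header, are a signal: the authors scaled each library to 1 common total. Each value is a whole multiple of a step of 0.427 to 0.635 scaled reads, and division gave whole reads for 100% of values (tolerance 0.01 scaled reads), 28596444 to 42515838 reads a library; a read value's counting error is that of those reads. The deposited FPKM imply library totals of which the table holds 31.7% to 48.7%, and were compared within a library, and between libraries only as an alternative. Transcript lengths in bases, the authors' log2 fold changes and log2 CPM, and their p-values with false discovery rates from edgeR, were used as deposited, per the file headers.

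Differences were tested by limma-trend, from limma 3.58.1 under R 4.3.3, applied to log2 of TMM-adjusted scaled reads (edgeR 4.0.16) plus 1 scaled read, which is 0.055 CPM and understates changes of low genes. Group was the single term over all 6 libraries, for 16683 transcripts that filterByExpr kept on recovered reads (minimum 10, total 15), with Benjamini-Hochberg adjustment and 0.05 as threshold. Run on recovered reads, edgeR's quasi-likelihood test called 28 transcripts and DESeq2 1.42.0 called 213 of 12475. Shares and ratios were compared by exact permutation tests (scipy 1.17.1). The limma script was tested on simulated data for PKA dKO against control with 15992 genes, where it recovered 17.9% of 1.5-fold, 62.7% of 2-fold and 87.9% of 4-fold changes, with 7 false calls of 119.

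The members and gene lists were chosen with earlier results of these data known. Named genes were all members, from each pathway list those past the threshold and the 2 with the lowest p, the 3 most alike for 4 members, and Prkaca, Prkacb and Aqp2; genes on the opposite strand, Tfcp2l1, Rhcg and Lrp2 were named after their values were seen. Replicates differed by more than sampling noise (chi-square per degree of freedom 19.5 to 66.0). Promoters are from RefSeq, GRCm38.p6; exon counts are from GENCODE M21.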

Additional observations from a re-analysis of the deposited data

How the results depend on the processing

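No member passed the threshold under any of the alternatives run (22 for each member, 21 for Rapgef4, which was not in the fit of transcripts with a mean of at least 1 CPM). Among those 21, DESeq2 gave Rapgef4 a log2 fold change but no adjusted p. Avpr2 kept its sign in all 22, at log2 fold changes of -0.41 to -0.27 (adjusted p 0.128 to 1.00), as did Gnas at 0.11 to 0.32 and Adcy6 at -0.32 to -0.10. Signs turned for Adcy3 in the 4 libraries without PKA dKO clone 3 and control clone 1 (-0.0012), for Adcy4 in 4 libraries (-0.38), DESeq2 (-0.21) and edgeR's quasi-likelihood test (-0.19), for Adcy7 in 4 libraries (0.021), for Adcy9 in DESeq2 (0.010), deposited FPKM (0.011), quasi-likelihood (0.017) and voom (0.014), for Rapgef3 in 4 libraries (0.069) and with chromosome medians removed (0.058), and for Rapgef4 in 4 libraries (-0.25), DESeq2 (-0.014) and quasi-likelihood (-0.00039). Of the other named genes, Adcy1 (-0.10) and Gna13 (-0.028) turned in 4 libraries. The cause was not tested. Leaving out 1 clone at a time gave -0.70 to 1.11 for Adcy4, -0.30 to 0.17 for Adcy7, -0.17 to 0.20 for Adcy9, -0.13 to 0.034 for Rapgef3, -0.55 to 0.96 for Rapgef4, -0.39 to 1.05 for Adcy1 and -0.95 to 0.038 for Adcy8. It gave differences in share of -0.366 to 0.329 percentage points for Adcy4, -0.192 to 0.345 for Adcy7 and -0.409 to 0.522 for Rapgef3, and a difference in the Adcy6 to Avpr2 ratio of -0.164 to 0.598. For the shares that kept their sign it gave -2.62 to -1.08 for Adcy6, 0.433 to 1.91 for Adcy9 and 0.417 to 1.18 for Adcy3. For other pathway genes it gave -1.95 to -1.07 for Lpar1, 0.15 to 0.49 for F2r, -0.45 to -0.17 for Rgs19, -0.62 to -0.27 for Grk5 and 0.088 to 1.05 for Cnga4, and the 4 libraries gave -0.87 for Lpar1, -0.13 for Rgs19 and 0.34 for Cnga4. The Adcy4 share differed by -0.177 in 4 libraries.

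The count of transcripts called was 28 in the limma fit of all 6 libraries, and it was 518 in 4 libraries, 213 with DESeq2, 91 on deposited FPKM, 71 with the split of the libraries that stood apart as a term, 45 with chromosome medians removed and 17 with no factors beyond the common total. It was 11 to 146 when 1 clone was left out, with 146 without control clone 1, 47 without PKA dKO clone 3, 13 without PKA dKO clone 1 and 11 without PKA dKO clone 2. With clone number as a replicate block, limma called 196 transcripts and edgeR's quasi-likelihood test, an alternative chosen after seeing the data, 149. Same-numbered clones deviated together for number 2 (r = 0.593) and not for numbers 1 and 3 (r = -0.213 and -0.218, over 12463 transcripts), so the numbers were not taken to pair the clones. Under the block Avpr2 had -0.32 (adjusted p = 0.588), and the calls among the named pathway genes were Rap1gap (adjusted p = 0.00144) and Abcc4 (adjusted p = 0.00159). Depth limits Adcy4 and Rapgef4, at 5 to 82 reads a library. The simulated data gave calls for 17.9% of 1.5-fold changes. Their noise was drawn gene by gene, without shifts of whole libraries or chromosomes, so this rate need not hold for these libraries. The 95% intervals of Avpr2, Adcy3, Adcy4, Adcy7 and Rapgef4 include a 1.5-fold change, and those of Gnas, Adcy6, Adcy9 and Rapgef3 do not.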

Other observations

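Rapgef3 and Adcy6 lie 822148 bases apart on chromosome 15, and Adcy6 lies 971423 bases from Aqp2. Within 1000000 bases of Adcy6, 42 tested transcripts had a median log2 fold change of -0.01, and Aqp2 was the 1 of them that passed (limma); the 20 around Rapgef3 also had a median of -0.01. The 36 transcripts around Avpr2 on the X chromosome had a median of 0.04, against -0.32 for Avpr2, and the 12 around Gnas 0.08, against 0.19 for Gnas. With chromosome medians removed, Avpr2 had a log2 fold change of -0.37 (limma, adjusted p = 0.128). Around Adcy4 on chromosome 14, 43 of 44 transcripts had negative values, with a median of -0.41. The median deviation of chromosome 14 was 0.03, 0.05 and -0.36 in PKA dKO clones 1, 2 and 3, against 0.38, 0.01 and -0.09 in control clones 1, 2 and 3 (log2 scale), so the extremes were the libraries that stood apart. Whether chromosome copy number differs between the clones was not tested.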
